A study of Homo sapiens with 12 samples.

Results

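The genes described here are 10 members of the immediate early response, namely FOS, FOSB, FOSL1 and FOSL2, JUN, JUNB and JUND, EGR1 and EGR3, and IER2. They were chosen by name, as AP-1 subunits and growth-factor-induced regulators, out of 55765 gene symbols in the count files, and all 10 were found there. All 12 libraries came from SH-SY5Y, a neuroblastoma line subcloned from the bone marrow-derived line SK-N-SH, after 7 days of differentiation with all-trans retinoic acid (ATRA). In the co-treatment experiment, 3 control libraries (ATRA alone) were compared with 3 libraries of cells that received hydrogen peroxide (H2O2) together with ATRA. In the pre-treatment experiment, 3 controls were compared with 3 libraries of cells that were given H2O2 at 72 h before the start of ATRA. The H2O2 dose is given as 10 mM in the series description and as 10 μM in the study's methods. A single cell line limits the design, and where separate cultures are not stated, p-values measure only the spread between these libraries.

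Immediate early genes are transcribed within minutes of a growth factor, calcium or stress signal, without the need for new protein. FOS and JUN proteins pair through a leucine zipper to form AP-1, which binds the sequence called the TPA response element, while EGR proteins bind GC-rich sites through zinc fingers. In neurons and neuroblasts these genes follow the MAP kinase cascades, which reach their promoters through serum response factor (SRF) with its ELK partners at CArG boxes and through CREB at cAMP response elements.

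Those elements can be seen in the 250 bases upstream of the start sites of 4 genes on which the values below turn. The sequences come from the RefSeq promoter table (GRCh38.p14) and were located on GRCh37, the build of the count files, by exact match, each on the strand of its gene. Promoters were matched for 8 of the 10 genes. Capitals mark matches to the short cAMP response core TGACGT, the full element TGACGTCA and the CArG box, and a match on the opposite strand appears as ACGTCA. The following stretches are EGR1 (chr5:137800918-137801167), FOS (chr14:75745281-75745530), FOSL2 (chr2:28615475-28615724) and JUND (chr19:18392433-18392682, minus strand).
EGR1: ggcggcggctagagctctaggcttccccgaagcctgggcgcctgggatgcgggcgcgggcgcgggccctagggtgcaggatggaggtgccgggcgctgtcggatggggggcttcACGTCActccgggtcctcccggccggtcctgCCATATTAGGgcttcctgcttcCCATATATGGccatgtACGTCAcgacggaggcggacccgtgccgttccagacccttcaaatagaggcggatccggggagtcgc
FOS: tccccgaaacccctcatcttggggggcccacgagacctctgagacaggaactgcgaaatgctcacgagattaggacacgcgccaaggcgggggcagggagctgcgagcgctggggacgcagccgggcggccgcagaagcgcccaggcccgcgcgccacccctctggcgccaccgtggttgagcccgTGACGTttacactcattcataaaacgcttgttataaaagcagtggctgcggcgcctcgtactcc
FOSL2: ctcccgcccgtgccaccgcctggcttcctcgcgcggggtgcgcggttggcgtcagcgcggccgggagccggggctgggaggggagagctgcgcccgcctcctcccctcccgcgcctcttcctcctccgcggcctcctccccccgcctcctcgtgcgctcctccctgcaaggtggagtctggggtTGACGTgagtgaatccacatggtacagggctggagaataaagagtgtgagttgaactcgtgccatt
JUND: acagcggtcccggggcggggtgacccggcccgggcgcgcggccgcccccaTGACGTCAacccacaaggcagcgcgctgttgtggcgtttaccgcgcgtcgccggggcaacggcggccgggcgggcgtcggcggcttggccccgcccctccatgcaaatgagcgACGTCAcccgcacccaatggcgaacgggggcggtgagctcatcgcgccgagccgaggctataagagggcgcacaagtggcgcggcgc

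Within the 300-base window searched, EGR1 was the only one of the 8 promoters with a CArG match, and it held 2, at -105 to -96 and at -83 to -74 from the start site, with TGACGT on the opposite strand at -136 and -67. Among 35116 promoters of the same 300-base window, searched on both strands, 1.29% held a CArG match and 7.98% held TGACGT. FOS carried TGACGT at -64, FOSB at -60 and FOSL2 at -66, and all 3 lay on the strand of the gene. JUND carried the full element at -200, which 1.85% of promoters held and which contains TGACGT on both strands, and a further TGACGT on the opposite strand at -87. FOSL2 also carried the AP-1 element TGACTCA at 5 bases after its start site, a motif found in 4.95% of promoters. No match to these elements was found in the 250 bases upstream of JUN, JUNB or IER2. TATAAA was found in FOS, FOSB and JUNB and in 11.5% of all promoters. These matches describe letters only. Bases farther upstream were not searched, so a gene without a match here may still carry the element outside the window.

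On hg19, EGR1 lies at chr5:137801168-137804992, FOS at chr14:75745529-75748933, FOSL2 at chr2:28615315-28640184, JUN at chr1:59242517-59249720 and FOSL1 at chr11:65659520-65668044. Chromosome 19 holds 4 of the genes, namely JUNB at chr19:12902300-12904129, IER2 at chr19:13261225-13265725, JUND at chr19:18390504-18392432 and FOSB at chr19:45971253-45978437. EGR3 is on chromosome 8. JUNB shares 259 exonic bases with HOOK2 on the opposite strand, and since the strand setting of the counting is not stated, reads there cannot be told apart.

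The libraries held 27576276 to 98287391 reads counted on genes. Reads outside genes numbered 0.80 and 0.83 per gene read in replicates 1 and 2 of the pre-treatment controls, 0.20 in replicate 3 and 0.26 to 0.46 in the other 9 libraries. Small RNA loci took 1.59% and 2.88% of gene reads in those controls 1 and 2 and 17.6% in control 3, against 5.04% to 15.1% elsewhere. Control 3 thus differed from controls 1 and 2. In reads outside genes, controls 1 and 2 lay farther from the other 9 libraries than control 3 did. Each pre-treatment result is given over 6 libraries and over the 5 without control 3. The 7 neuronal markers summed to between 2325 and 3263 CPM (reads on a gene relative to the depth of its library, scaled with TMM factors) in every library, the 9 noradrenergic markers to between 1396 and 3253 CPM with TH below 1 CPM throughout, and the 4 blood cell markers to at most 1.51 CPM.

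Per kilobase of exon, the most abundant of the genes was JUND (mean over 12 libraries 28.4 CPM per kb), a JUN protein that is present in resting cells, followed by JUNB (17.6), which can oppose JUN at shared targets. IER2, a short early response protein found in the nucleus, averaged 9.34 CPM per kb, the zinc-finger activator EGR1 averaged 5.96, and JUN, the partner most used in AP-1, averaged 4.67. Among the FOS proteins FOSL2 (Fra-2) averaged 3.21 CPM per kb and FOS 1.49, whereas FOSL1 (Fra-1) averaged 0.261. EGR3, a relative and target of EGR1 (0.0596), and FOSB (0.0156) were near the detection limit, with 2 to 58 and 1 to 13 reads per library.

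**Figure D1:**
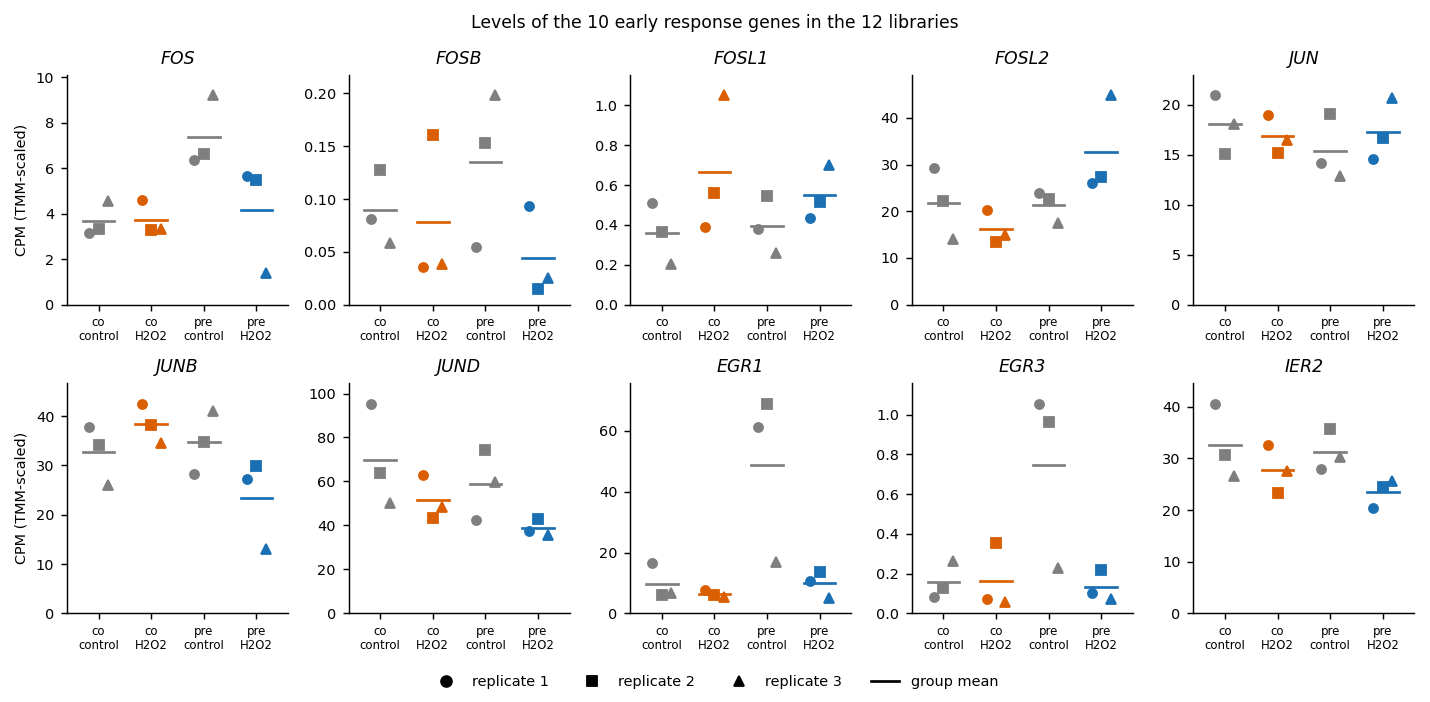
Level of each gene in each of the 12 libraries (CPM scaled by TMM, linear axes from 0), by group, with symbols for the replicate number and bars for the group means. EGR1 and EGR3 stand high in replicates 1 and 2 of the pre-treatment controls (61.2 and 68.7 CPM for EGR1), while JUN spans only a 1.62-fold range.

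From its lowest to its highest library EGR1 spanned a 13.2-fold range, which only EGR3 (18.05-fold) and FOSB (13.5-fold), both with low counts, exceeded. It stood at 16.5, 5.97 and 6.66 CPM in the co-treatment controls and at 7.68, 5.93 and 5.31 CPM with H2O2. In the pre-treatment experiment it stood at 61.2, 68.7 and 16.7 CPM in the controls and at 10.8, 13.8 and 5.21 CPM after H2O2. The ranges overlapped in co-treatment and did not overlap in pre-treatment, where even control 3 lay above the highest treated library. The mean of pre-treatment controls 1 and 2 (65.0 CPM ± 5.32, SD, n = 2) was 3.88-fold above the highest of the other 10 libraries, which was control 3 of the same group.

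EGR3 was also highest in pre-treatment controls 1 and 2, at a far lower level. Its pre-treatment controls held 58, 44 and 15 reads, or 1.05, 0.964 and 0.229 CPM, and the treated libraries held 10, 15 and 6 reads, or 0.104, 0.220 and 0.0751 CPM. In co-treatment it held 4, 6 and 9 reads in controls and 2, 22 and 3 with H2O2, too few to pass the filter on low counts. Pre-treatment controls 1 and 2 stood 2.85-fold above the highest of the other 10 libraries, and control 3 barely above the highest treated library.

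FOS, the prototype partner of JUN, stood at 3.16, 3.33 and 4.56 CPM in co-treatment controls and 4.58, 3.29 and 3.32 CPM with H2O2, and at 6.35, 6.64 and 9.20 CPM in pre-treatment controls and 5.67, 5.46 and 1.41 CPM after H2O2. All 3 pre-treatment controls lay above all treated libraries, with treated replicate 3 farthest below them. FOSL2 went the other way in pre-treatment, at 23.9, 22.7 and 17.5 CPM in controls and 26.0, 27.3 and 44.8 CPM after H2O2, again without overlap and with treated replicate 3 farthest out. In co-treatment FOSL2 stood at 29.2, 22.2 and 14.0 CPM in controls and 20.2, 13.3 and 15.0 CPM with H2O2, and the groups overlapped.

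Among the JUN genes, JUND stood at 95.1, 63.8 and 50.4 CPM in co-treatment controls and 63.1, 43.3 and 48.4 CPM with H2O2, and at 42.5, 74.2 and 59.6 CPM in pre-treatment controls and 37.4, 43.0 and 35.8 CPM after H2O2. JUNB stood at 37.7, 34.1 and 26.1 CPM in co-treatment controls against 42.4, 38.2 and 34.5 CPM, and at 28.4, 34.7 and 41.1 CPM in pre-treatment controls against 27.3, 30.0 and 13.1 CPM. Both genes overlapped between groups in each experiment, JUND in pre-treatment only through control 1 (42.5 CPM) and treated replicate 2 (43.0 CPM). JUN lay between 12.9 and 21.0 CPM in all 12 libraries, with no group apart from another.

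IER2 lay at 28.0, 35.6 and 30.2 CPM in pre-treatment controls and at 20.5, 24.4 and 25.6 CPM after H2O2, with no overlap, and between 23.3 and 40.5 CPM in co-treatment, with overlap. FOSL1 ranged from 0.205 to 1.05 CPM (7 to 56 reads) and overlapped in both experiments. When the 4 groups were put in order of their mean for each gene, 3 of 27 neighbouring pairs of the 9 genes that passed the filter had ranges apart (11.1%, against 6.70% of such pairs over all 24407 genes), namely pre-treatment control above pre-treatment H2O2 for FOS and for EGR1, and co-treatment H2O2 above pre-treatment H2O2 for JUND. Levels set across the experiments rest on libraries made for separate comparisons. In bulk RNA, fewer cells with a transcript and less RNA per cell cannot be told apart.

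Treated replicate 3 of the pre-treatment experiment had the lowest EGR1, FOS, JUNB and JUND of all 12 libraries, and the highest FOSL2. Its JUN (20.7 CPM) was exceeded only by the first co-treatment control. The gene values of this library thus differed from those of its 2 partners in both directions.

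Co-treatment was the first question, whether H2O2 present through differentiation changed these genes at its end. With edgeR's quasi-likelihood test fitted on all genes, 0 of the 8 genes that passed the filter were called at an adjusted p below 0.05, and 0 had an unadjusted p below 0.05, where 0.598% of all genes tested were called. DESeq2 and limma-voom called 0 as well. None of the 8 had groups that did not overlap, which 13.9% of all genes had. Log2 fold changes (log2FC) ran from -0.63 (SE 0.33) for EGR1 to 0.89 (SE 0.52) for FOSL1, with JUND and FOSL2 at -0.44 each, JUNB at 0.23, IER2 at -0.23, JUN at -0.09 and FOS at 0.02. The smallest adjusted p of the 8 was 0.650, for JUND. Single libraries carried much of these values. Without control 1, EGR1 was at -0.0058, JUND at -0.15, FOSL2 at -0.17 and IER2 at -0.04, and without H2O2 replicate 3, FOSL1 was at 0.41. EGR3 and FOSB did not pass the filter.

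Pre-treatment asked whether exposure to H2O2 ahead of ATRA changed the genes at the end of differentiation. Over all 6 libraries, 0 of 9 genes tested were called by edgeR (0.0242% of all genes were called). An unadjusted p below 0.05 was held by 4 of the 9 and by 2776 of all 24743 genes tested. Limma-voom called 0, and DESeq2 called 2, EGR1 and EGR3, where it called 2.85% of all genes. EGR1 had a log2FC of -2.26 (SE 0.53, adjusted p = 0.320) and EGR3 of -2.45 (SE 0.71, adjusted p = 0.320). FOSL2 was at 0.64 (SE 0.25, adjusted p = 0.383), JUND at -0.57 (SE 0.22), IER2 at -0.39 (SE 0.17), FOS at -0.80 (SE 0.48) and JUNB at -0.54 (SE 0.31). JUN (0.20) and FOSL1 (0.51) were not called either, with SEs of 0.22 and 0.46. EGR3 reached the filter threshold in all 3 controls and in 1 of 3 treated libraries, so it was tested mainly because of its controls.

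Groups did not overlap for 5 of the 9 genes over 6 libraries. FOS, EGR1, EGR3 and IER2 were lower in every treated library and FOSL2 was higher. Of all genes tested, 16.3% had groups apart (8.02% lower and 8.24% higher). EGR3 reached the filter threshold in 1 of 3 treated libraries, so its place among the 5 is not independent of the filter. Its control 3 and its H2O2 replicate 2 held 15 reads each. Over the 5 libraries the same 5 genes were apart, but there 57.9% of all genes were (28.6% lower and 29.3% higher).

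Without control replicate 3, edgeR called EGR1 (log2FC -2.64, SE 0.33, adjusted p = 0.00188) and EGR3 (log2FC -2.87, SE 0.50, adjusted p = 0.00615), 2 of 9 genes, both lower after H2O2. EGR3 reached the filter threshold in both controls and in 1 of 3 treated libraries, so it was tested through the group in which it was high and its place in this count is not independent of the filter. This count stands beside 26.1% of all genes called in that fit, or 12.8% in the lower direction. The other 7 genes were not called, with JUND at -0.52 (adjusted p = 0.105), FOSL2 at 0.56 (adjusted p = 0.113), IER2 at -0.37 (adjusted p = 0.121), FOS at -0.56 and JUNB at -0.36 (adjusted p = 0.416 for both), FOSL1 at 0.32 (adjusted p = 0.601) and JUN at 0.13 (adjusted p = 0.656). With edgeR's quasi-likelihood test a single control library thus decided the EGR calls, while the log2FC of EGR1 was -2.26 with it and -2.64 without it. The choice of test mattered too, since DESeq2 called both EGR genes with that library kept.

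**Figure D2:**
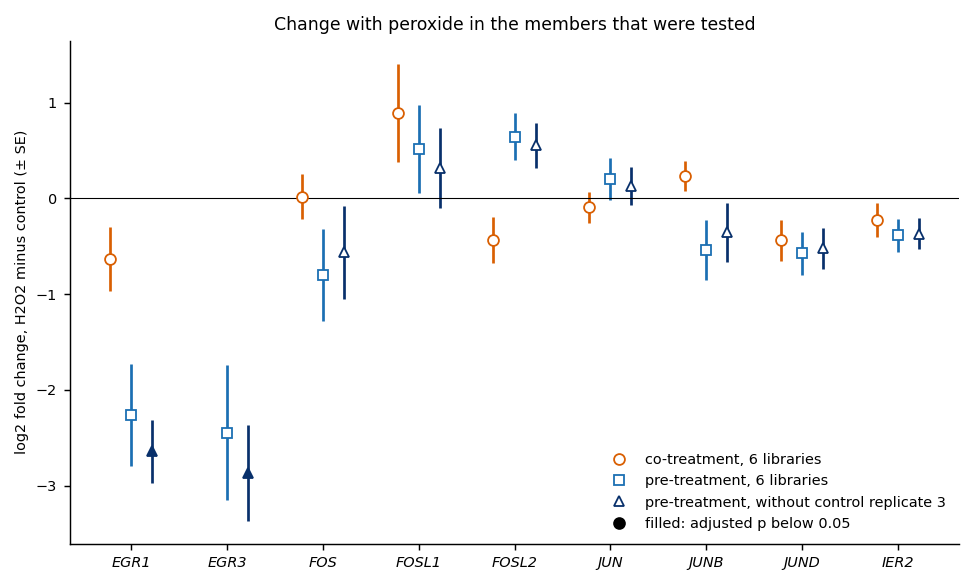
Log2 fold change, H2O2 minus control, with its SE as bars, of the 9 genes tested in at least 1 comparison, in co-treatment and in pre-treatment over 6 libraries and without control replicate 3. Filled symbols, EGR1 (-2.64) and EGR3 (-2.87) in the last of these, mark an adjusted p below 0.05. EGR3 was tested there through its controls, with 1 of 3 treated libraries at the filter threshold.

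The libraries with high EGR1 and EGR3 were also those with most reads outside genes. The 2 pre-treatment controls with 61.2 and 68.7 CPM of EGR1 had 0.80 and 0.83 reads outside genes per gene read, and no other library exceeded 0.46. Among the other 10 libraries EGR1 had no such order, with 16.7 CPM at a ratio of 0.20, 5.97 CPM at 0.285, 16.5 CPM at 0.370 and 5.21 CPM at 0.462. The part of this difference between libraries in the EGR values was not tested.

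**Figure D3:**
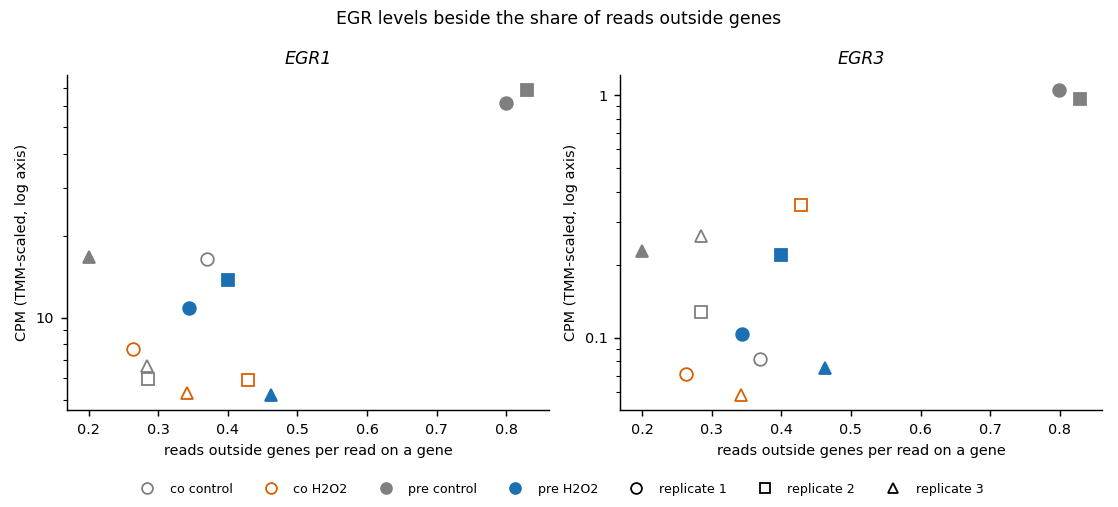
EGR1 (left) and EGR3 (right) level in CPM (log axis) against reads outside genes per read on a gene, 1 point per library, open for co-treatment and filled for pre-treatment. Pre-treatment controls 1 and 2 stand alone at 0.80 and 0.83 on the horizontal axis, and the other 10 libraries lie between 0.20 and 0.46.

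The change in pre-treatment minus that in co-treatment was tested as an interaction. Over 12 libraries 0 of 9 genes were called by edgeR, DESeq2 or limma-voom (edgeR called 0.0287% of all genes). With edgeR 4 of the 9 had an unadjusted p below 0.05, as did 2183 of all 24407 genes tested. EGR1 differed by -1.67 (SE 0.71, adjusted p = 0.545), EGR3 by -2.64 (SE 1.14, adjusted p = 0.549), FOSL2 by 1.05 (SE 0.39, adjusted p = 0.522) and JUNB by -0.80 (SE 0.37, adjusted p = 0.558). Without pre-treatment control 3, EGR1 was the 1 gene called (-2.06, SE 0.54, adjusted p = 0.0341), beside 8.02% of all genes, and EGR3 differed by -3.09 (SE 1.02, adjusted p = 0.0721). That call was lost when any of 8 other libraries was left out, and with robust estimation of the spread.

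AP-1 is made of pairs, so the makeup of each family was set out as shares of CPM per kb within a library, which no scaling between libraries alters. FOSL2 made up 44.4% to 88.4% of FOS family transcripts and FOS 6.28% to 52.4%, with FOSL1 at 2.49% to 15.0% and FOSB below 1% in every library. JUND made up 47.2% to 65.1% of JUN family transcripts, JUNB 22.7% to 43.95% and JUN 6.25% to 18.2%. The sum of the JUN family exceeded that of the FOS family in all 12 libraries, by 12.8- to 14.2-fold in co-treatment controls and 13.1- to 14.8-fold with H2O2, and by 7.46- to 11.3-fold in pre-treatment controls and 4.45- to 7.45-fold after H2O2.

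Within the JUN family, the ratio of JUNB to JUND per kb was 0.418, 0.563 and 0.546 in co-treatment controls and 0.709, 0.931 and 0.752 with H2O2. The groups did not overlap, and the difference was 0.65 on the log2 scale (exact permutation test, two-sided p = 0.10, the smallest that 3 against 3 allows). In pre-treatment the same ratio overlapped, at 0.492 to 0.727 in controls and 0.385 to 0.769 after H2O2 (exact permutation p = 1.0). Within the FOS family, the ratio of FOSL2 to FOS was 1.68, 1.52 and 0.847 in pre-treatment controls and 2.04, 2.23 and 14.1 after H2O2. This ratio too did not overlap, with a log2 difference of 1.63 (exact permutation test, two-sided p = 0.10), or 1.32 without control 3 (p = 0.20, the smallest that 2 against 3 allows by this exact test). It overlapped in co-treatment, at 1.36 to 4.11 in controls and 1.80 to 2.01 with H2O2 (exact permutation p = 0.40). These 2 ratios were chosen after the levels had been seen.

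**Figure D4:**
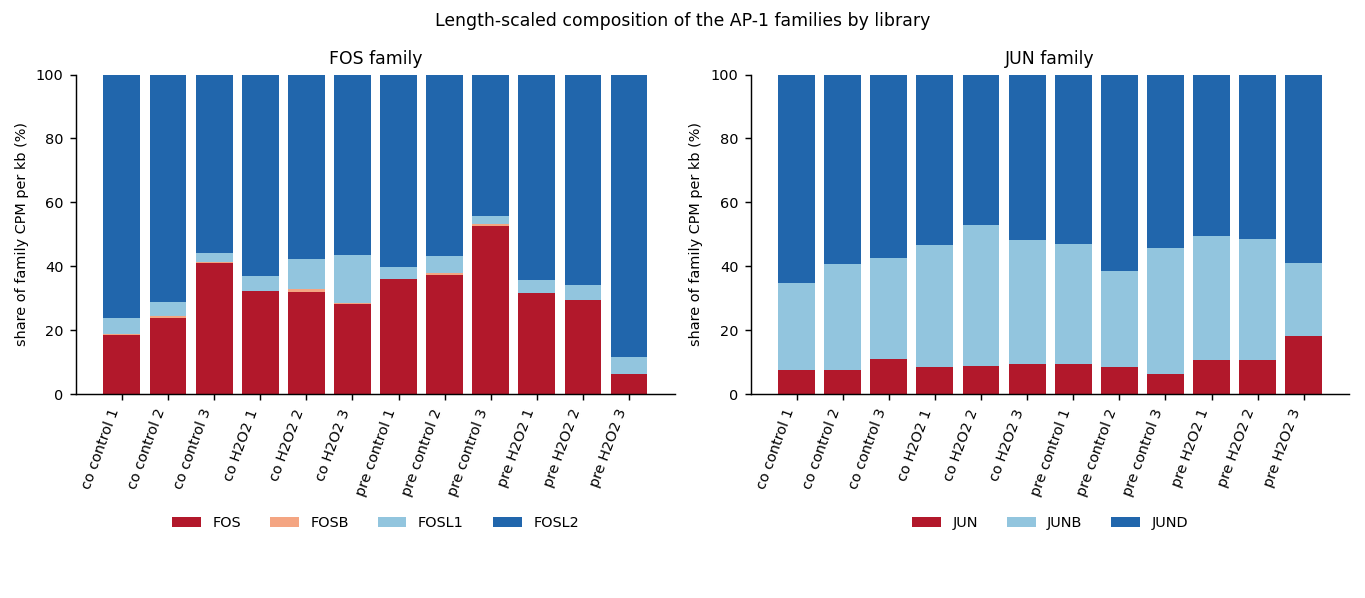
Share of each FOS family gene (left) and JUN family gene (right) in the summed CPM per kb of its family, in percent, 1 bar per library. JUND is the largest JUN share in every library, and FOSL2 ranges from 44.4% in pre-treatment control 3 to 88.4% in pre-treatment H2O2 replicate 3.

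Genes that work upstream and downstream of the early response were read from lists of the pathway. As a measure for the lists below, 1800 of all 22089 genes tested in co-treatment had an unadjusted p below 0.05. In pre-treatment over 6 libraries 2776 of 24743 did. Of 32 other early response genes, 27 were tested in co-treatment and 2 were called, both higher with H2O2, where 0.598% of all genes were called. They were HBEGF, an EGF receptor ligand (log2FC 1.24, SE 0.18, adjusted p = 0.00945), and SGK1, a serum- and glucocorticoid-induced kinase (log2FC 0.76, SE 0.12, adjusted p = 0.0141). The median of the 27 was 0.01. HBEGF rose from 6.28, 4.65 and 4.33 CPM to 12.5, 11.3 and 12.2 CPM, with no overlap.

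The same list had 0 of 26 called in pre-treatment over 6 libraries, with 9 at an unadjusted p below 0.05 and its most abundant genes, MCL1 and SGK1, at -0.07 and 0.03. Without control 3, 6 of 27 were called (22.2%, against 26.1% of all genes). PER1, a circadian clock gene (log2FC -1.99, SE 0.18, adjusted p = 0.000903), and ZFP36L2, an mRNA decay factor (log2FC -1.62), fell, while HBEGF (log2FC 1.47) rose. GADD45B, a stress-response gene, was called as well, but it passed the filter only through the treated libraries, at 0.0544 and 0.0219 CPM in controls 1 and 2 and 0.401 to 0.746 CPM after H2O2, so no fold is given. PER1 stood at 38.0 and 55.6 CPM in controls 1 and 2 and 16.2 CPM in control 3, against 10.2, 11.9 and 11.6 CPM after H2O2, the order seen for EGR1.

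Feedback inhibitors of the MAP kinase cascades, namely the DUSP phosphatases, the SPRY and SPRED proteins and the EGR corepressors NAB1 and NAB2, were tested for all 17 genes. In co-treatment 3 were called (17.6%, against 0.598% of all genes), DUSP2 upward (log2FC 1.12, SE 0.15, adjusted p = 0.00504) and SPRY1 (log2FC -1.11, SE 0.15, adjusted p = 0.00504) and SPRY2 (log2FC -0.75, SE 0.14, adjusted p = 0.0322) downward. DUSP2 stood at 9.52, 11.5 and 9.29 CPM in controls and 21.9, 20.4 and 23.7 CPM with H2O2, and SPRY1 at 76.3, 72.3 and 63.8 CPM against 39.7, 29.0 and 29.7 CPM. In pre-treatment over 6 libraries 0 of 17 were called, with 9 at an unadjusted p below 0.05, a median of -0.46 and the most abundant, DUSP6 and DUSP16, at -0.36 and -0.61. Without control 3, 9 of 17 were called (52.9%, against 26.1% of all genes), 7 lower and 2 higher, led by SPRED2 (log2FC -1.69, adjusted p = 0.000924), SPRY4 (-1.51), DUSP8 (-1.78) and DUSP7 (-1.37).

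The 11 factors that act on CArG boxes and cAMP response elements had 0 called in co-treatment, with 0 at an unadjusted p below 0.05 and a median of -0.07. Its most abundant genes, CREB1 and CREBBP, were at -0.23 and -0.15. In pre-treatment over 6 libraries 0 were called and 5 had an unadjusted p below 0.05, with a median of -0.68 against -0.01 for all genes, CREB1 at -0.00 and CREBBP at -1.73 (SE 0.53, adjusted p = 0.320). Without control 3, 7 of 11 were called (63.6%, against 26.1% of all genes), 6 lower and 1 higher, led by the coactivators EP300 (log2FC -2.12, SE 0.17, adjusted p = 0.000837), MKL2 (-1.33) and CREBBP (-2.15) and by ELK3 (-0.93). EP300 stood at 114 and 139 CPM in controls 1 and 2, at 22.7 CPM in control 3 and at 22.5, 27.7 and 32.8 CPM after H2O2. Its control 3 thus lay inside the treated range, unlike that of EGR1.

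The 28 genes of the MAP kinase cascades had 0 called in co-treatment (2 at an unadjusted p below 0.05) and 0 in pre-treatment over 6 libraries (2 at an unadjusted p below 0.05), where MAPK8 was at 0.19 and 0.14 and NRAS at -0.13 and 0.04. Without control 3, 8 were called (28.6%, near the 26.1% of all genes), 6 lower and 2 higher, among them MAPK7 (-0.73), HRAS (0.59), BRAF (-0.45) and MAP2K5 (-0.83), with a list median of 0.07. The other bZIP partners had 0 of 9 called in co-treatment (2 at an unadjusted p below 0.05), with ATF2 at -0.02 and MAFG at -0.06, and 0 of 10 in pre-treatment (1 at an unadjusted p below 0.05), with ATF2 at 0.24 and MAFG at -0.34. Without control 3, ATF7 (-2.03) and ATF2 (0.42) were called, 2 of 10 (20%, against 26.1% of all genes).

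Of 12 genes known as AP-1 targets, a list that holds FOSL1, one of the genes described here, 8 were tested in pre-treatment over 6 libraries and 0 were called by edgeR (2 at an unadjusted p below 0.05), with CCND1, which encodes cyclin D1, at -0.33 and TIMP1, a metalloproteinase inhibitor, at -0.03. Without control 3, 2 of 8 were called (25%, against 26.1% of all genes), both higher, among them PLAU, which encodes urokinase (log2FC 1.31, adjusted p = 0.0436).

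**Figure D5:**
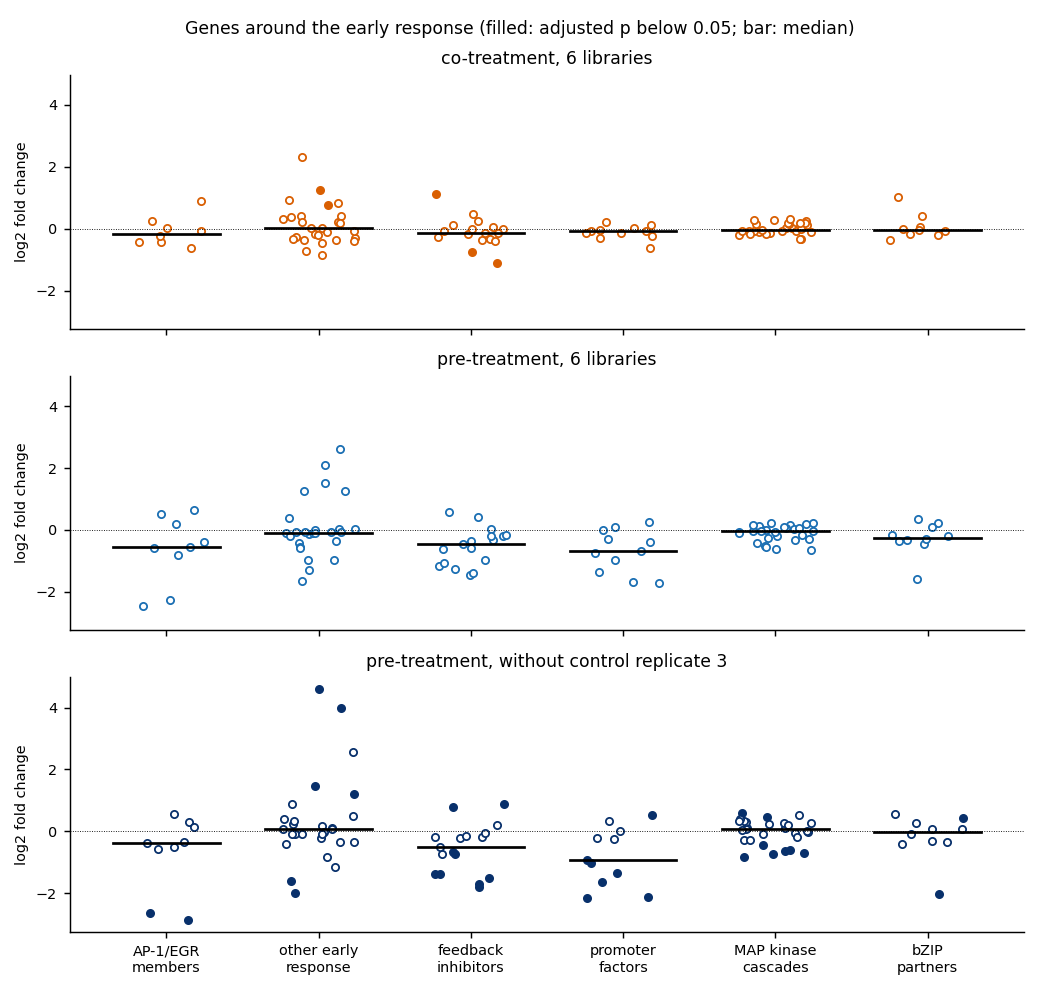
Log2 fold change, H2O2 minus control, of each gene tested in 6 lists, in the 3 comparisons, on a common vertical scale. Filled points have an adjusted p below 0.05 and bars are list medians, and the promoter factor median lies at -0.93 without control 3 and at -0.07 in co-treatment.

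Inducible heat shock genes and cell state markers gave a measure of what else moved in the same libraries. Of 4 heat shock genes tested, 0 were called in co-treatment (0 at an unadjusted p below 0.05) and 0 in pre-treatment over 6 libraries (1 at an unadjusted p below 0.05), with HSPA8 at 0.25 and 0.67 and HSPH1 at 0.05 and 0.42. Without control 3, 3 of 4 were called higher (75%, against 26.1% of all genes), HSPA8 (1.20), HSPH1 (0.52) and DNAJB1 (0.42). VIM, a mesenchymal filament gene, rose in co-treatment (log2FC 1.16, adjusted p = 0.0272). It also rose in pre-treatment over 6 libraries (log2FC 2.42, adjusted p = 0.0443) and over 5 (log2FC 2.66, adjusted p = 0.000718). VIM was the 1 called of 7 mesenchymal markers tested in co-treatment, where 0.598% of all genes were called. It was also the 1 called of 7 in pre-treatment over 6 libraries (0.0242% of all genes). Called or not, 5 of the 7 were higher and 2 lower in co-treatment. In pre-treatment over 6 libraries 3 were higher and 4 lower. TNC was lower in every co-treatment H2O2 library than in any co-treatment control. The summed mesenchymal markers overlapped between groups in both experiments, at 97.3 to 210.0 CPM in co-treatment controls and 195 to 211 CPM with H2O2, and at 140 to 274 CPM in pre-treatment controls and 141 to 195 CPM after H2O2. This sum was mostly FN1, at 66.8 to 235 CPM over the libraries, while VIM lay at 3.07 to 22.8 CPM, so the overlap does not speak for each marker. The part of the mesenchymal markers in the values of the early response genes was not tested.

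The rest of the marker lists were called as follows. None of 7 neuronal markers was called by edgeR in co-treatment (0 at an unadjusted p below 0.05) or in pre-treatment over 6 libraries (1 at an unadjusted p below 0.05), with STMN2 at -0.04 and 0.44 and TUBB3 at -0.25 and -0.32. Without control 3, STMN2 (0.83), GAP43 (1.13) and MAPT (-0.94) were called, 3 of 7 (42.9%, against 26.1% of all genes). Of 8 noradrenergic markers tested in pre-treatment 0 were called over 6 libraries (3 at an unadjusted p below 0.05). Over 5 libraries 5 were called (62.5%, against 26.1% of all genes), 4 lower and 1 higher. They were led by GATA2 (-0.92), GATA3 (-1.44), PHOX2A (-0.73) and DBH (-1.72). Of the 8 tested, called or not, 4 were lower and 4 higher. Over the 5 libraries 4 of 8 mesenchymal markers were called (50%, against 26.1% of all genes), with CD44 (1.11) and TNC (-1.06) among them. CD14 (-1.15) was called among the 2 blood cell markers tested there. YAP1 was called too, but it passed the filter only through the treated libraries, with 0.0544 and 0.0876 CPM in controls 1 and 2.

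Genes whose library-to-library deviations were most like those of the early response genes were sought among 15784 genes with a mean of at least 1 CPM. Deviations of log2 CPM from the group mean were correlated with the mean deviation of 9 of the genes over 12 libraries. The highest Pearson r values were 0.968 for ASIC1, 0.964 for AC005789.11, 0.959 for TNS3, 0.956 for SCD and 0.949 for B4GALNT1. The genes did not vary alike, with FOS at r = -0.64 with FOSL2 and -0.58 with FOSL1 and at 0.80 with JUNB, so the mean stands for no single gene. Pre-treatment H2O2 replicate 3 had the largest deviation of both FOS (-1.30) and JUNB (-0.75), so this library weighs on their r. The points share library depth and composition, and without pre-treatment control 3 only ASIC1 (r = 0.974, 11 libraries) was still among the first 5.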

How the data were processed

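RNA of 12 SH-SY5Y libraries was analysed from 12 files of gene counts. According to the study's methods and the submitters' processing notes, the authors checked reads with FastQC 0.11.8, trimmed them with cutadapt 2.10, mapped them to hg19 with HISAT2 2.1.0 and made the deposited raw counts per gene symbol with HTSeq 0.7.2. The strand setting and annotation version are not given in the sources used here. The 5 closing entries of each file, reads not counted on a gene, held 40.0% to 59.9% of all entries and stayed out of library sizes. The authors' 2 tables of fold changes, p-values and FDR were not used. Count intervals cover counting error only.

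Tests were run with edgeR 4.0.16 under R 4.3.3 (TMM, glmQLFit and glmQLFTest, prior count 2 for log2 CPM). A gene was tested when at least as many libraries as there are in the smaller group had a CPM equal to or above 5 counts of the smallest library. Genes were called at a Benjamini-Hochberg adjusted p below 0.05 over all genes tested. Positions and exon lengths came from GENCODE v44 lifted to GRCh37. The pre-treatment comparison was made over 6 libraries and over the 5 without control replicate 3, as the clustering of the study shows 5. Replicates of a group differed by 27.6 to 613 chi-square per degree of freedom, so none was a copy of another replicate of its group. Libraries of different groups were not compared in this way. The steps were tested on simulated data, in which 100% of genes changed by a log2FC of 2 were recovered in co-treatment (21630 genes), 90% in pre-treatment over 6 libraries (24269 genes) and 97% over 5 (25648 genes). Changes were simulated only at a log2FC of 2 or 3, only in genes above a floor of expected reads, and with a common mean profile for all libraries. These rates therefore do not describe smaller changes, genes with few reads or a library that stands apart.

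The genes, lists and tests were chosen with earlier results of these data known. Named by rule were the 10 genes, from each further list at most the 4 called genes with the smallest adjusted p in each comparison, or the 2 with the highest mean CPM where none was called, and the 5 genes with the most similar deviations. Alternatives were DESeq2 1.42.0, limma-voom (limma 3.58.1), the exact test of edgeR, other scalings and filters, small RNA loci left out, robust estimation, a replicate block, 1 fit over both experiments, log2FC thresholds and leaving out each library. Some called genes of these lists are not reported here.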

Additional observations from a re-analysis of the deposited data

Results flagged for a closer look

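The change of EGR1 in pre-treatment differed from its change in co-treatment by -2.06 on the log2 scale (SE 0.54, adjusted p = 0.0341, edgeR interaction test over 11 libraries), which is why it is listed. Both pre-treatment controls in that fit lay above all 3 treated libraries, while the co-treatment groups overlapped. Over all 12 libraries the difference was -1.67 (SE 0.71, adjusted p = 0.545). The call over 11 libraries was 1 of 9 genes tested, beside 8.02% of all genes called in that fit. It was lost with robust estimation and when any of several single libraries was left out. The high EGR1 controls were also the libraries with 0.80 and 0.83 reads outside genes per gene read, whose part in the difference was not tested.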

How the results depend on the processing

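Of 846 values recomputed under the alternatives, 801 kept their direction and their side of the threshold, 18 passed it newly, 9 no longer passed it and 18 changed direction. In co-treatment 0 genes were called under every alternative. In pre-treatment over 6 libraries 2 genes (EGR1 and EGR3) were called by DESeq2, 1 (EGR1) without a filter, 1 (EGR1) by the exact test, and 0 to 2 when 1 library was left out, the 2 without control 3. Over 5 libraries 4 were called with library size only, 4 without a filter and 2 to 3 with 1 library left out. For the difference over 12 libraries 1 was called without a filter and 0 to 1 with 1 library left out. Over 11 libraries 2 were called by DESeq2, 3 without a filter, 0 with robust estimation and 0 to 1 with 1 library left out. EGR1 lost the call there without co-treatment control 2 or 3, any co-treatment H2O2 library, pre-treatment control 1 or 2, or pre-treatment H2O2 replicate 1. The causes were not tested.

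With 1 library left out, the co-treatment log2FC of FOS ran from -0.15 to 0.19 and that of JUN from -0.215 to 0.0294, and the pre-treatment log2FC of JUN over 5 libraries from -0.0507 to 0.367. The difference ran from -0.70 to 0.13 for FOSL1 and from -0.42 to 0.0636 for JUND over 12 libraries, and from -0.43 to 0.38 for JUND and -0.38 to 0.0511 for IER2 over 11. With library size only, JUN was at -0.0804 in pre-treatment over 5 libraries and at -0.0352 for the difference over 11.

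Samples with the same replicate number did not deviate together (correlations of -0.28 to 0.07). These values gave no sign of pairing by number, but they cannot show that the samples were unpaired. With the replicate block, 4 genes were called in pre-treatment over 5 libraries, EGR1, EGR3, IER2 (-0.43) and JUND (-0.42), and JUN was at -0.0027. All genes called there rose from 6872 to 10745 (26.1% to 40.8% of genes tested).

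Counts over all genes moved more. They ran from 3 to 535 in co-treatment (132 as reported), 0 to 705 in pre-treatment over 6 libraries (6), 6274 to 10745 over 5 (6872), 0 to 272 for the difference over 12 (7) and 1977 to 3847 over 11 (2058) under the other settings. With 1 library left out they ran from 18 to 223, 0 to 6872, 1665 to 8577, 0 to 2058 and 321 to 4499, in the same order. With library size only, the median of all genes over 5 libraries moved to -0.21 and called genes split into 1384 higher and 4890 lower, against 3490 and 3382, and with upper-quartile factors the median was -0.10 and the split 2186 and 4088. The log2FC threshold was not run for the difference. FOSB (1 to 13 reads per library) did not pass the filter and was not tested, and EGR3 rested on 2 to 58 reads.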
